A study of Mus musculus with 12 samples.

Results

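Mitochondrially encoded genes are the genes carried by the circular genome inside mitochondria, and they were taken here as every gene whose symbol in the deposited table begins with mt-. The rule found 37 of 47263 genes, made up of 13 protein genes, 2 ribosomal RNA (rRNA) genes and 22 transfer RNA (tRNA) genes. The group was chosen by measured values of these same libraries, namely the low values of mt-Co2 and mt-Co3 and the low share of all members in KO against WT MET/CAT livers. The high share of these genes in WT MET/CAT livers was known as well. Every comparison of the members that uses MET/CAT libraries therefore reuses values behind the choice and is given as a description; its count of calls stands beside the share over all genes and nothing is read from it. Only KO against WT in GFP livers compares none of those libraries, though its filter and its limma SE and p draw on all 12.

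RNA from whole mouse liver was sequenced in 12 libraries, 3 for each of 4 groups. WT GFP and WT MET/CAT livers came from wild-type mice, and KO GFP and KO MET/CAT livers from mice with Sirt2 deleted in hepatocytes. Neither the Cre driver nor the exons removed are named in the labels. MET/CAT stands for plasmids with c-MET and DN90-beta-catenin, injected under pressure into the tail vein together with the Sleeping Beauty transposase HSB2, a model of liver cancer in which a part of the hepatocytes takes up the plasmids. GFP livers are named by the titles as given a GFP plasmid, whose make-up the labels do not describe. Injection was at an age of 6 to 8 weeks, and the livers were collected 8 weeks afterwards. Sample titles set the groups, since the treatment field tracks genotype and goes against the titles of the WT MET/CAT and KO GFP libraries. No label says that each replicate was a different mouse, so p-values measure only the spread between these libraries. Values are normalized reads, meaning reads of a gene divided by 1 factor per library.

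The mitochondrial genome is transcribed from both strands into long precursors, which are cut at the tRNAs that lie between the other genes. The messenger RNAs encode core subunits of the respiratory chain, made by mitochondrial ribosomes whose 2 rRNAs come from the same genome, while all other subunits and the whole transcription machinery come from the nucleus. Liver is rich in mitochondria, and its transcripts from this genome are among the most abundant of the cell. In whole liver, fewer cells of a type and less RNA per cell cannot be told apart.

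The libraries held 18208879 to 24352961 reads, and 1 read counted for 0.753 to 1.204 normalized reads. Sirt2, the deleted gene, had 726 to 1068 normalized reads in the 6 WT and 126 to 248 in the 6 KO libraries. KO GFP replicate 3 stood apart: the correlation across genes of its deviation from the mean with exon length was 0.435 (Spearman rho over 13835 genes, which are not independent replicates), against −0.333 to 0.172 in the other 11.

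The 37 genes together took 2.33%, 1.76% and 3.68% in the WT GFP libraries, 2.98%, 2.47% and 3.72% in KO GFP, 3.36%, 5.83% and 4.41% in WT MET/CAT and 3.03%, 2.21% and 2.11% in KO MET/CAT libraries of all normalized reads. Group means were 2.59% ± 0.987 in WT GFP, 3.06% ± 0.626 in KO GFP, 4.53% ± 1.24 in WT MET/CAT and 2.45% ± 0.504 in KO MET/CAT livers (SD, n = 3). The highest WT GFP and KO GFP libraries lay above the lowest WT MET/CAT library, so that the WT MET/CAT range overlapped both GFP ranges, and it lay above all 3 KO MET/CAT libraries. The protein genes made up most of the share, with 2.14%, 1.52% and 3.39% in the WT GFP libraries, 2.76%, 2.21% and 2.78% in KO GFP, 3.04%, 5.37% and 4.11% in WT MET/CAT and 2.71%, 1.88% and 1.92% in KO MET/CAT libraries. The rRNA genes took 0.188%, 0.232% and 0.287% in the WT GFP libraries, 0.213%, 0.257% and 0.92% in KO GFP, 0.308%, 0.447% and 0.287% in WT MET/CAT and 0.309%, 0.322% and 0.187% in KO MET/CAT libraries. KO GFP replicate 3 stood out for rRNA, at 24.7% of the mitochondrially encoded total against 6.49% to 14.6% in the other 11 libraries. The tRNA genes took 0.00454% to 0.0142% of a library, almost all of it from mt-Tp. Their 3 WT MET/CAT values (0.01% to 0.0142%) lay above those of WT GFP and KO MET/CAT, while KO GFP replicate 3 (0.013%) lay within the WT MET/CAT range.

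**Figure D1:**
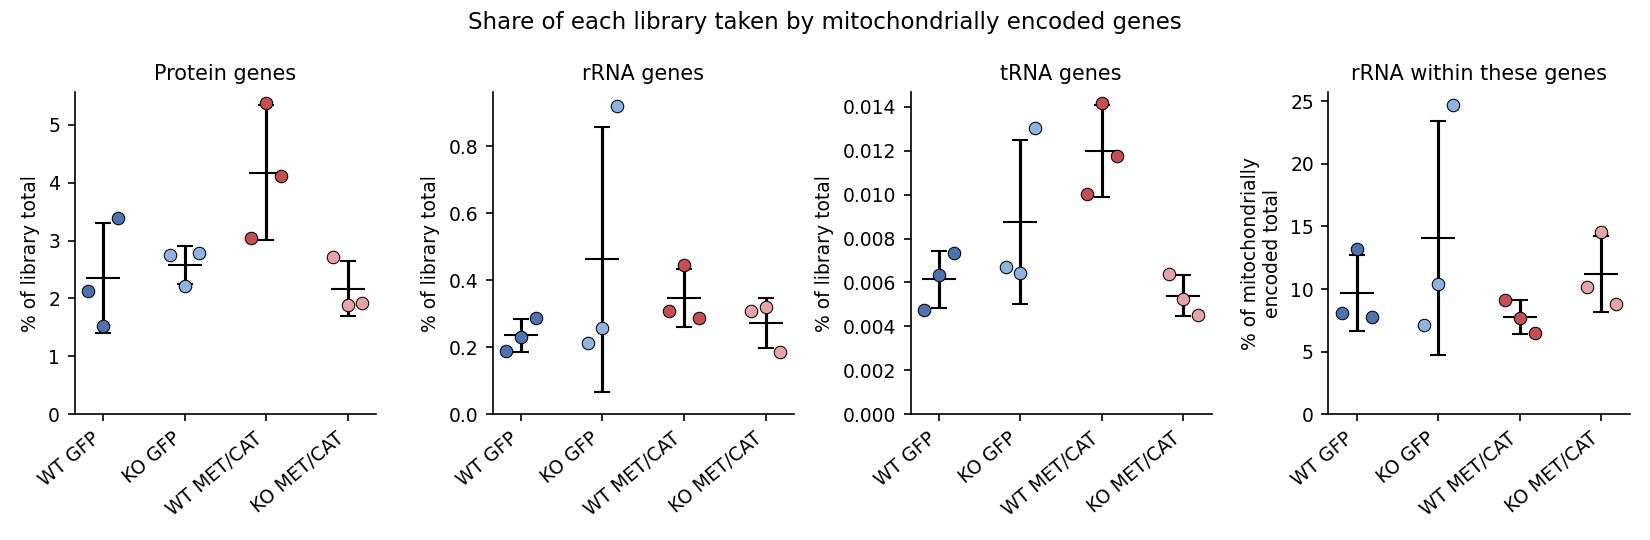
Share of each library's normalized reads (percent, y axis) taken by the protein, rRNA and tRNA genes in the 4 groups, and the rRNA part of the mitochondrially encoded total. Points are libraries and bars are means ± SD (n = 3); WT MET/CAT replicate 2 is the highest library for protein genes at 5.37%, and KO GFP replicate 3 the highest for rRNA genes at 0.92%.

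Within the mitochondrially encoded total the balance of transcripts differed between libraries of 1 group. The ratio of mt-Co1 to mt-Nd5, an upstream and a downstream gene of the heavy-strand precursor, ran from 1.52 to 7.58. Its 3 lowest values were in WT GFP replicate 2 (1.52), KO GFP replicate 3 (1.65) and KO MET/CAT replicate 2 (1.79). The same 3 libraries had the 3 highest rRNA parts, at 13.2%, 24.7% and 14.6% of the mitochondrially encoded total. These 2 quantities are tied, since mt-Co1 alone made up 17.7% to 34.8% of that total. As a share of the whole library, rRNA in WT GFP replicate 2 (0.232%) lay below that in WT GFP replicate 3 (0.287%). Trends with exon length of the 3 libraries with the lowest ratios pointed in different directions (rho of −0.333, 0.435 and −0.235), and what set the balance was not tested. Over the 12 libraries, log2 values of the 7 protein genes outside or across an edge of the copied stretch described below had a median pairwise Pearson r of 0.873 (21 pairs, 0.272 to 0.959). mt-Rnr1 and mt-Rnr2 had an r of 0.955 with each other. Pairs of one of these protein genes with an rRNA gene had a median r of 0.386, from 0.0696 to 0.858. The points of each pair share their library and its depth, so these values are descriptions.

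Coordinates are those of GENCODE M21 on GRCm38, which holds all 37 genes on the mitochondrial chromosome (MT). The heavy-strand transcript carries 28 of them and the light-strand transcript the other 9, namely mt-Nd6 and 8 tRNA genes. Copies of a stretch of this genome also lie in the nucleus. On the minus strand of chromosome 1, from 24611535 to 24616197, GENCODE annotates 7 pseudogenes in the order of their sources, which span MT:6390-11042 (4653 bases, here the copied stretch). The transcripts of these pseudogenes aligned over 4140 bases with 2 mismatches, and the bases between them were not searched. The alignments covered 681 of 684 bases of mt-Co2, 679 of 681 of mt-Atp6, 783 of 784 of mt-Co3, 345 of 348 of mt-Nd3 and all 297 of mt-Nd4l, and the first 876 of mt-Nd4 and last 483 of mt-Co1. mt-Atp8 lies within the stretch by position, but only 43 of its 204 bases were aligned; the gap that holds the rest is 233 bases long in both places. The values of all these genes are therefore uncertain, since their reads can match 2 places, and no source used here states how such reads were counted.

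The sequences show how little separates a member from its copy. The first are both places where an aligned base differs, with the differing base in capitals, and the last is an identical stretch. The differences, counted from 1 at the start of the member, are T3C in mt-Nd3 (MT position 9461; Gm28438 has the C) and A1066T in mt-Co1 (MT position 6393; Gm29216 has the T). Sequences are GENCODE M21 transcripts, 5′ to 3′. mt-Nd3 is MT:9459-9551 on the plus strand, mt-Co1 is MT:6390-6483 on the plus strand and mt-Co3 is MT:8607-8726 on the plus strand. Their copies are chr1:24613027-24613119, chr1:24616095-24616188 and chr1:24613852-24613971, all on the minus strand.
mt-Nd3: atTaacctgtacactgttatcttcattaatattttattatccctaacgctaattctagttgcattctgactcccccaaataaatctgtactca
Gm28438: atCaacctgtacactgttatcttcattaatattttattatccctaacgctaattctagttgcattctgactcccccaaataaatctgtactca
mt-Co1: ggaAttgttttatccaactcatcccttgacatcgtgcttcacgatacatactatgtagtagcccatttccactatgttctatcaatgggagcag
Gm29216: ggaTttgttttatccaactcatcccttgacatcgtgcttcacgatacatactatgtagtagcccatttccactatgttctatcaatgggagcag
mt-Co3 and Gm28437: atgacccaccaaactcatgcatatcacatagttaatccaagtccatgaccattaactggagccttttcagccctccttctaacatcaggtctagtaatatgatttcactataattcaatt

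Levels per length followed this boundary. The 6 protein genes wholly inside the copied stretch averaged 26.0 to 1463 normalized reads per kb over the 12 libraries (median 369). The 5 wholly outside averaged 25515 to 101808 (median 68956). mt-Co1 and mt-Nd4, which cross its edges, averaged 111309 and 48351 over their whole length, the part inside included. The genes inside lie between mt-Co1 and mt-Nd4 on the same precursor. Within complex IV, mt-Co1 had 111309 normalized reads per kb and its partner subunits mt-Co2 and mt-Co3 had 1463 and 538. The members inside the stretch took 0.00591% to 0.018% of a library, against 1.52% to 5.35% for the other 7 protein genes.

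**Figure D2:**
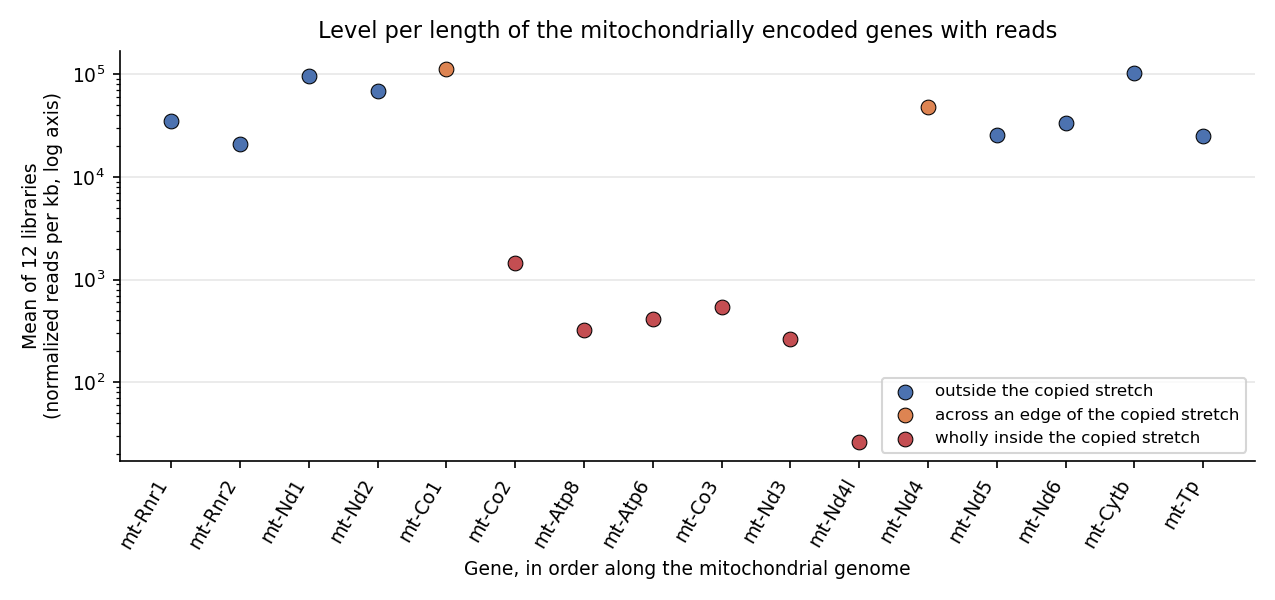
Mean normalized reads per kb over 12 libraries (y axis, log scale) of the 15 protein and rRNA genes and mt-Tp, in genome order on the x axis. Colours mark genes outside, across an edge of or wholly inside the stretch copied to chromosome 1; the 6 genes inside lie at 26.0 to 1463 and the others between 20948 and 111309.

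The copies were themselves counted. Of 17 nuclear genes whose transcripts matched a mitochondrial gene over at least 100 bases at 90% identity or more, 16 were in the table, and 8 averaged at least 10 normalized reads. These were 6 of the 7 on chromosome 1, and Gm13340 (a copy of mt-Co1, mean 15.3) and Gm13339 (a copy of mt-Nd2, mean 29.3) on chromosome 2, which were 97.6% and 96.7% identical to their sources. Gm10925, identical to mt-Atp6 over 678 bases, moved beside its source, at 0.576 to 1.43 times the mt-Atp6 value. Gm28661, identical to mt-Co2 over 681 bases, had 0.26 to 0.905 times the value of mt-Co2.

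Gm28437, identical to mt-Co3 over 783 bases, behaved otherwise. It had 1931, 2103 and 3259 normalized reads in the WT GFP libraries, 185, 220.0 and 1075 in KO GFP, 4804, 544 and 807 in WT MET/CAT and 259, 378 and 224 in KO MET/CAT libraries. This was 5.68 to 9.31 times mt-Co3 in the WT GFP libraries, and 0.579, 0.626 and 4.85 times in the KO GFP libraries. The ratio was 7.53, 0.815 and 0.96 in WT MET/CAT and 0.79 to 0.933 in KO MET/CAT libraries. Values therefore fell far apart within the KO GFP and within the WT MET/CAT group, in libraries given the same title. Gm28438, which differs from mt-Nd3 at 1 base, had 1.28 to 4.54 times the mt-Nd3 value. Like the ratio of Gm28437 to mt-Co3, its ratio was high in the WT GFP libraries (3.91 to 4.37) and WT MET/CAT replicate 1 (3.62), and low in WT MET/CAT replicates 2 and 3 (1.35 and 1.36) and KO GFP replicate 2 (1.70). It went the other way in KO GFP replicate 1 (3.63), KO GFP replicate 3 (1.28) and the KO MET/CAT libraries (3.11 to 4.54). What sets these ratios was not tested.

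**Figure D3:**
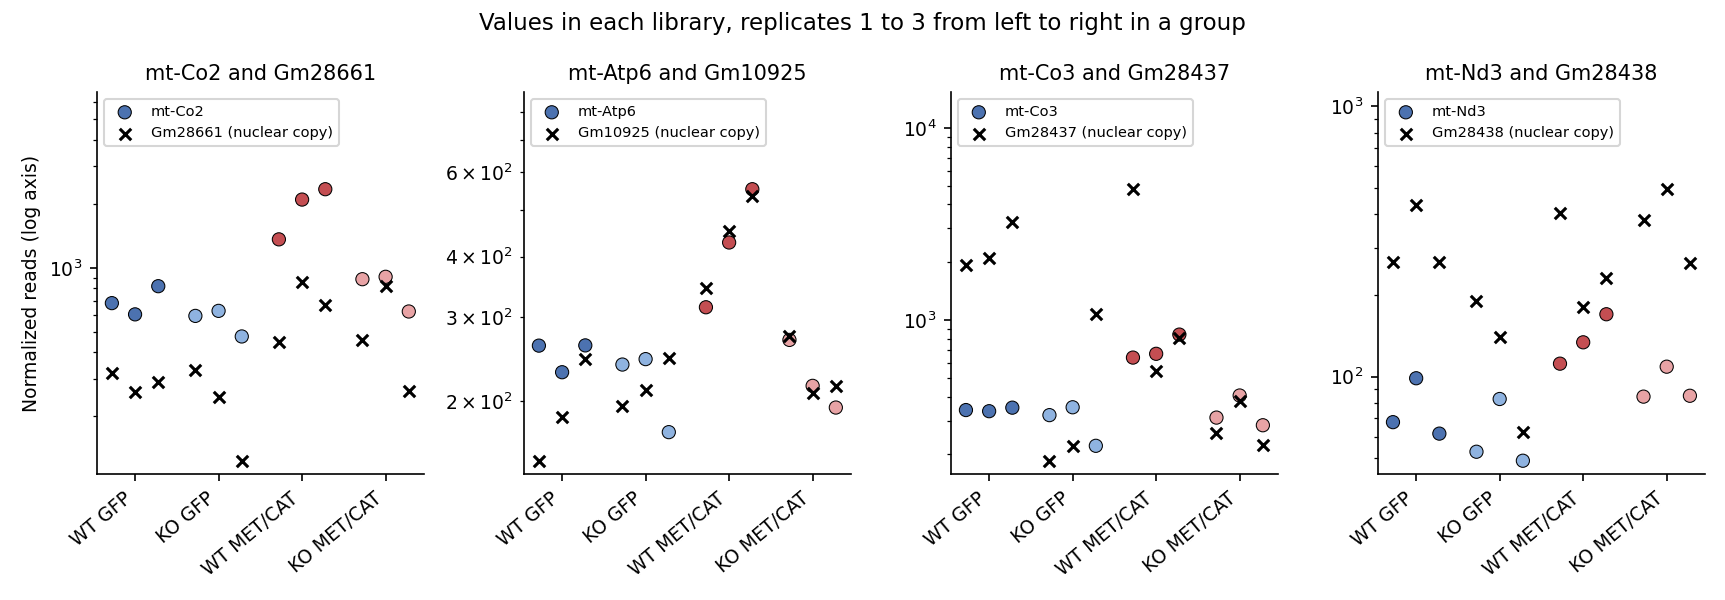
Normalized reads (y axis, log scale) of 4 members (circles, coloured by group) and of their copies on chromosome 1 (crosses) in each of the 12 libraries. Gm10925 lies close to mt-Atp6 throughout, while Gm28437 lies 4.85 to 9.31 times above mt-Co3 in 5 libraries and at 0.579 to 0.96 times in the other 7.

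Of the 37 members, 16 passed the filter of at least 10 normalized reads in at least 3 libraries: all 13 protein genes, both rRNA genes and the tRNA gene mt-Tp. The other 21, all tRNA genes, were not tested. Of these, 20 had no read in any library, where a count of 0 allows 2.26 to 3.61 normalized reads per library (3 reads, counting error only), and mt-Tg had 1 read, in WT MET/CAT replicate 2. The tRNA genes are 59 to 75 bases long. Differences below are on the log2(value + 1) scale, and calls are those of limma with an adjusted p (Benjamini-Hochberg, 13871 genes tested) under 0.05.

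MET/CAT against GFP in WT livers asked what the oncogenes changed with Sirt2 intact. Of the 16 members tested, 15 had a difference above 0. limma called 1 member (mt-Co2), higher. Of all genes tested 0.339% were called, 0.209% higher and 0.13% lower. The 13 protein genes had a median difference of 0.92, against −0.01 over all genes tested. Values of 13 members did not overlap, all 3 WT MET/CAT libraries lying above all 3 WT GFP libraries. Over all genes tested, 10.5% were separated that way and 10.3% the other way. The high share in WT MET/CAT livers was known at the choice, so nothing is read from the count of 13. The 13 include mt-Nd4l, which reached the filter only through the 3 WT MET/CAT libraries and KO GFP replicate 3. Its place among the 13 follows from the way it passed the filter, and nothing is read from it. mt-Atp8 (−0.34) was the exception in direction, and mt-Rnr2, mt-Nd6 and mt-Atp8 overlapped.

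**Figure D4:**
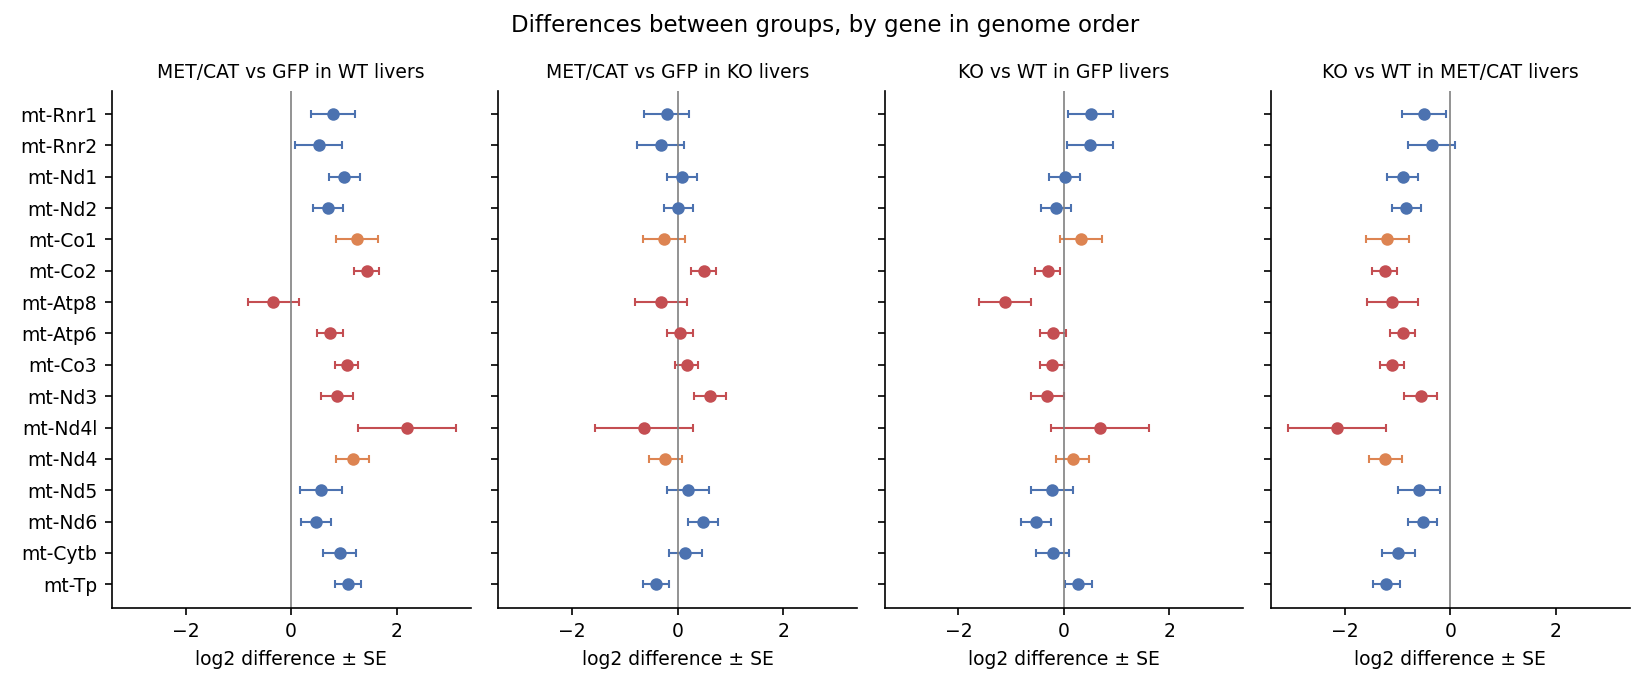
Log2 difference ± SE (x axis, limma over 12 libraries, n = 3 a group) of the 16 members tested, in genome order on the y axis, in 4 comparisons. Blue, orange and red mark genes outside, across an edge of and inside the copied stretch. mt-Co2 stands at 1.43 in WT livers. Every panel but that of KO against WT in GFP livers compares libraries by which these genes were chosen, and the SE in each panel draws on all 12.

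mt-Co2 (MT:7013-7696) encodes the complex IV subunit that takes electrons from cytochrome c. It had 682, 604 and 819 normalized reads in the WT GFP libraries, 594, 627 and 475 in KO GFP, 1361, 2093 and 2342 in WT MET/CAT and 884, 907 and 623 in KO MET/CAT libraries. The WT MET/CAT libraries were the 3 highest of the 12. The difference in WT livers was 1.43 (SE 0.24), and 1.35 when reads of the chromosome 1 copies were added to their sources.

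mt-Co3 (MT:8607-9390), the third core subunit of complex IV encoded here, had 340.1, 335 and 349.9 normalized reads in the WT GFP libraries, 320.0, 352 and 221 in KO GFP, 638, 667 and 841 in WT MET/CAT and 311, 405 and 283 in KO MET/CAT libraries. The WT MET/CAT libraries again lay above the other 9. Its difference in WT livers was 1.05 (SE 0.22), and 1.33 with the length trend removed. With Gm28437 added to mt-Co3 the difference turned to −0.29.

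mt-Co1 (MT:5328-6872), the catalytic subunit of complex IV, had the highest level per length when counted over whole genes. This order is uncertain, since 31.3% of mt-Co1 and 63.6% of mt-Nd4 lie in the copied stretch. mt-Co1 had 114737, 71569 and 194627 normalized reads in the WT GFP libraries, 189278, 143336 and 114976 in KO GFP, 203991, 353101 and 299865 in WT MET/CAT and 171021, 92281 and 114890.0 in KO MET/CAT libraries. WT GFP and WT MET/CAT values did not overlap, with a difference of 1.25 (SE 0.40), yet the KO GFP range reached 189278, close to the lowest WT MET/CAT library.

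The complex I genes outside or at the edge had differences of 1.01 for mt-Nd1, 0.70 for mt-Nd2, 1.17 for mt-Nd4 and 0.57 for mt-Nd5. Each of these 4 was higher in all WT MET/CAT than in all WT GFP libraries. mt-Nd1 had 55102 to 96830 normalized reads in WT GFP and 118918 to 185545 in WT MET/CAT libraries, and mt-Nd4 had 33942 to 70734 and 88135 to 134723. mt-Cytb, the only complex III subunit of this genome, had 70019 to 138569 and 155287 to 212315 (a difference of 0.92). mt-Nd3 and mt-Atp6, a complex I and a complex V subunit from the copied stretch, had differences of 0.87 and 0.74, and with copies added that of mt-Nd3 was 0.06. mt-Nd4l had 93 reads over all 12 libraries and at most 26.4 normalized reads in a library, so that its fitted difference of 2.20 depends on the value added before taking logs.

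mt-Nd6 (MT:13552-14070), a complex I subunit and the sole messenger RNA of the light strand, moved less. It had 13762, 16143 and 22058 normalized reads in the WT GFP libraries, 9409, 9784 and 17644 in KO GFP, 23096, 27756 and 20494 in WT MET/CAT and 19008, 18525 and 12576 in KO MET/CAT libraries. The WT groups overlapped in 1 pair of libraries, and the difference was 0.47 (SE 0.28). It overlaps mt-Nd5 on the other strand, and without a stated strand setting reads of opposite transcripts cannot be told apart.

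The rRNA genes mt-Rnr1 and mt-Rnr2 encode the RNAs of the small and the large mitochondrial ribosome subunit. mt-Rnr1 (MT:70-1024) had 18643, 23605 and 28854 normalized reads in the WT GFP libraries, 19059.9, 24956 and 76386 in KO GFP, 37903, 51726 and 33984 in WT MET/CAT and 32569.6, 35663 and 20463 in KO MET/CAT libraries. mt-Rnr2 (MT:1094-2675) had 19244, 29718 and 26497 normalized reads in the WT GFP libraries, 19878, 26338 and 80229 in KO GFP, 36769, 41504 and 29439 in WT MET/CAT and 35134, 35828 and 17106 in KO MET/CAT libraries. KO GFP replicate 3 was by far the highest library for both. In WT livers the MET/CAT difference was 0.80 for mt-Rnr1 and 0.52 for mt-Rnr2.

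mt-Tp (MT:15356-15422, minus strand), the tRNA for proline, held 20032 reads, beside the 1 read of mt-Tg. Its gene is the last one annotated before the end of the chromosome, and its 67 bases are shown because no other tRNA gene was read beyond 1 read. Whether its reads come from the tRNA or from longer RNA was not tested.
mt-Tp: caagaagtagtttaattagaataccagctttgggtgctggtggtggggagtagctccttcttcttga
It had 958, 1458 and 1418 normalized reads in the WT GFP libraries, 1226, 1286 and 2220.2 in KO GFP, 2434, 2957 and 2598 in WT MET/CAT and 1399, 1169.6 and 914 in KO MET/CAT libraries. On this scale all WT MET/CAT libraries lay above all other libraries, with a difference from WT GFP of 1.08 (SE 0.25). As a share of the library, the tRNA genes of KO GFP replicate 3 lay within the WT MET/CAT range.

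Sums of cell type markers also differed between these groups. The 7 hepatocyte markers summed to 2126710 to 2207703 normalized reads in WT GFP, 2737420 to 3358532 in WT MET/CAT and 2006696 to 2418311 in KO MET/CAT livers, and 4 of the 7 had a difference above 0 in WT livers with none called. Of the neutrophil markers, all 9 had a difference above 0, with 1 called higher (Mmp8), against 0.209% of all genes tested. Their sum was 87.5 to 233 normalized reads in WT GFP, 69.3 to 96.1 in KO GFP and 348 to 1080 in WT MET/CAT libraries. In KO MET/CAT livers the neutrophil sum was 430 to 3110, a range that overlapped that of WT MET/CAT. Macrophage and Kupffer cell markers summed to 9435 to 12504 in WT GFP, 1899 to 5861 in KO GFP, 7264 to 10395 in WT MET/CAT and 8260 to 11185 in KO MET/CAT livers. No gene of these 3 lists was without reads, and the part of cell types in the result was not tested. Trends with exon length overlapped between WT GFP (rho of −0.333 to 0.0146) and WT MET/CAT (−0.209 to 0.172), and with them removed the protein genes had a median of 1.17 with 12 of 13 above 0.

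MET/CAT against GFP in KO livers asked the same without hepatocyte Sirt2. limma called none of the 16 members, while 1.25% of all genes tested were called. edgeR and DESeq2 also called 0 members, with 1.46% and 7.11% of genes called. At an unadjusted p under 0.05 stood 0 members and 2818 of the 13871 genes tested. The protein genes had a median difference of 0.09, from −0.63 for mt-Nd4l to 0.62 for mt-Nd3. The sign of this median turned under other scalings, to −0.08 with quantile normalization, −0.13 with equal library totals and −0.39 with the length trend removed. Over all genes the median was 0.05, and −0.17 with equal totals. mt-Nd3 alone was higher in all 3 KO MET/CAT (84.3 to 109) than in all 3 KO GFP libraries (48.8 to 82.6), against 14.4% of all genes tested. The interaction, the test of whether the MET/CAT effect differed between genotypes, called 0 members and 0% of all genes tested in limma (6 members and 2153 genes at an unadjusted p under 0.05), and DESeq2 called 1 member and 1.27% of the genes it tested. It contains the difference between KO and WT MET/CAT livers that chose the members, so nothing is read from these counts. Its value was −0.94 for mt-Co2 (SE 0.33) and −1.49 for mt-Tp (SE 0.36).

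Averaged over genotypes, MET/CAT against GFP called 2 members higher, with 3.8% of all genes tested called, 2.4% higher and 1.4% lower. They were mt-Co2, with an averaged difference of 0.97 (SE 0.17), and mt-Co3, with one of 0.61 (SE 0.16). Fits leaving out 1 library kept the call of mt-Co2 in 12 of 12 and that of mt-Co3 in 2 of 12. This average takes in the WT MET/CAT values that were known at the choice: mt-Co2 stood at 1.43 in WT and 0.50 in KO livers. With copies added the averaged difference of mt-Co3 turned to −0.27. The copy of mt-Co2, Gm28661, had an averaged difference of 1.11 (SE 0.29).

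KO against WT in GFP livers asked what Sirt2 loss did without oncogenes. None of the 16 members was called by limma, with 0.00721% of all genes tested called. A fit on the GFP libraries alone, with the same genes tested, called 0 members and 0% of all genes. edgeR and DESeq2 called 0 members, with 0.00721% and 1.03% of genes called. At an unadjusted p under 0.05 stood 1 member and 2155 of the 13871 genes tested. mt-Nd4l reached the filter only through its WT MET/CAT values and KO GFP replicate 3, and nothing is read from its value. No member separated the KO from the WT libraries in either direction, where 9.15% of all genes were higher and 13% lower. The protein genes had a median of −0.21, with 4 of 13 above 0, and a median of 0.41 with 12 of 13 above 0 once the length trend was removed. The rRNA genes had differences of 0.51 and 0.49, and without KO GFP replicate 3 their median was −0.11.

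In MET/CAT livers the difference between KO and WT is the one through which these genes came to notice, and it is given as values. All 16 members lay below 0, with a median of −0.98 over the protein genes. mt-Co2 differed by −1.25, mt-Co3 by −1.11, mt-Co1 by −1.19, mt-Nd4 by −1.23 and mt-Tp by −1.21. All KO MET/CAT libraries lay below all WT MET/CAT libraries for 13 members. Over all genes tested, 7.01% were separated so and 6.82% the other way. The members were chosen by this difference, so nothing is read from the count of 13. The 13 include mt-Nd4l, which the filter let in through its WT MET/CAT values. The exceptions were mt-Nd5 and both rRNA genes, at −0.59, −0.50 and −0.35. limma called 0 members and 0.00721% of all genes tested, from which nothing is read. The choice of members had no threshold on this value. Averaged over plasmids, KO against WT contains the same difference, and limma called 0 members and 0.0144% of all genes tested. edgeR called 0 members (0.00721% of all genes) and DESeq2 1 (0.293% of the genes it tested). At an unadjusted p under 0.05 stood 10 of the 16 members and 1125 of the 13871 genes tested. Nothing is read from these counts.

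Nuclear genes of the same complexes had differences of the opposite sign in WT livers, where none of them was called. There MET/CAT against GFP gave a median of −0.38 over 36 nuclear complex I subunits, with 1 above 0, −0.41 over 9 of complex III, −0.45 over 12 of complex IV, with 0 above 0, and −0.40 over 18 of complex V. Ndufab1 (−0.93), Ndufb3 (−0.82) and Ndufc2 (−0.72) had the smallest p in complex I, with adjusted p from 0.182 to 0.251. Cox6b1 (−0.96), Cox6c (−0.83) and Ndufa4 (−0.60) had the smallest in complex IV. In KO livers the same medians were 0.61, 0.50, 0.62 and 0.57, with 34 of 36 and 12 of 12 above 0 in complexes I and IV and again none called. Cox4i1, whose product joins mt-Co1 in complex IV, had a difference of 1.32 there (adjusted p = 0.158). Without KO GFP replicate 3 the KO medians were 0.26, 0.13, 0.13 and 0.14, and with the length trend removed they were 0.26, 0.33, 0.28 and 0.37. The WT medians with the length trend removed were −0.22, −0.28, −0.28 and −0.32.

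In KO against WT MET/CAT livers the nuclear medians were 0.36, 0.43, 0.44 and 0.27, beside the −0.98 of the mitochondrially encoded protein genes. Trends with exon length ran from −0.209 to 0.172 in WT and from −0.235 to 0.0151 in KO MET/CAT libraries. They were not removed for the medians given here, and removing them moved the medians of other comparisons, as given above. The 88 measured genes of mitochondrial ribosomes and translation had medians of −0.31 in WT and 0.30 in KO livers for MET/CAT against GFP, and 0.16 for KO against WT MET/CAT livers, with none called. The 4 complex II subunits, a complex with no mitochondrially encoded member, had medians of −0.18 and 0.23 for MET/CAT against GFP. These lists share libraries across comparisons and were not compared with the members by a test.

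**Figure D5:**
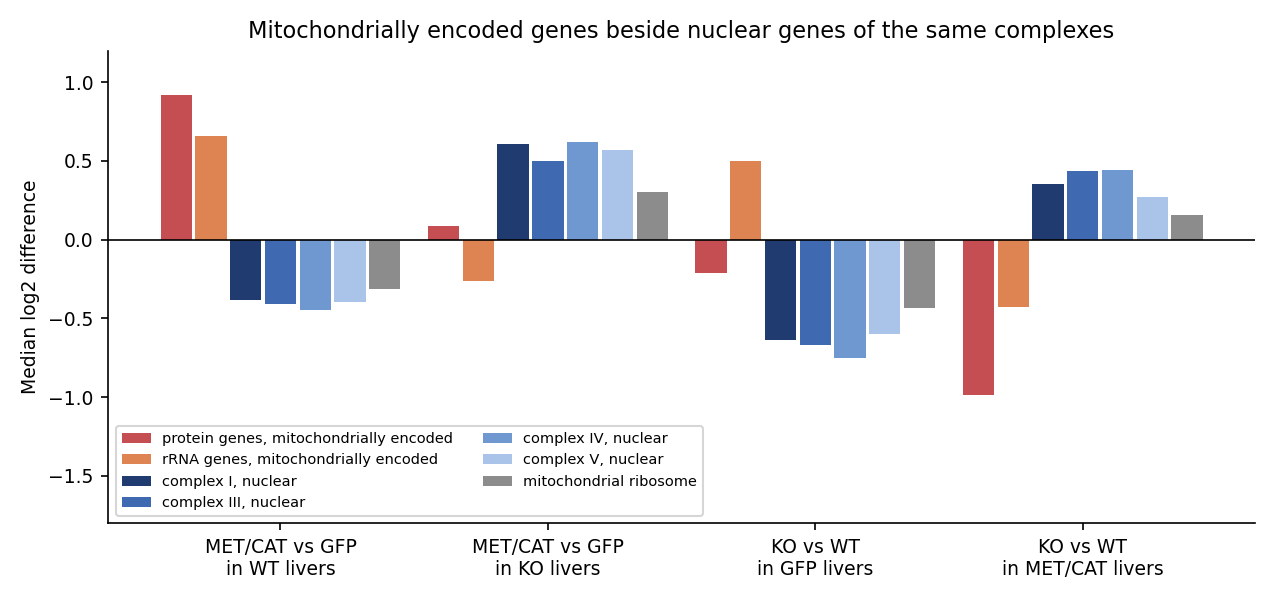
Median log2 difference (y axis) of the mitochondrially encoded protein (13) and rRNA (2) genes and of nuclear genes of complexes I, III, IV and V and the mitochondrial ribosome (36, 9, 12, 18 and 88 genes tested) in 4 comparisons. In WT livers the protein genes stand at 0.92 and the nuclear complexes at −0.38 to −0.45, and in KO against WT MET/CAT livers at −0.98 and 0.27 to 0.44.

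Among 19 genes of mitochondrial transcription and DNA maintenance, 3 fell in MET/CAT against GFP averaged over genotypes, where 1.4% of all genes tested were called lower, and none was called within either genotype. Tfam, which packs mitochondrial DNA and starts its transcription, fell by 0.54 (adjusted p = 0.0205), from 847 ± 75.4 to 554 ± 69.8 normalized reads in WT and from 918 ± 53.2 to 662 ± 28.8 in KO livers (SD, n = 3). Polg2, the accessory subunit of the mitochondrial DNA polymerase, fell by 1.07 (adjusted p = 0.0107), from 141 ± 14.5 to 54.9 ± 15.4 in WT and from 107 ± 25.4 to 61.9 ± 4.84 in KO livers. Ssbp1, which binds single-stranded mitochondrial DNA, fell by 0.60 (adjusted p = 0.0417). The call of Polg2 was kept in 12 of 12 fits leaving out a library, that of Tfam in 7 (highest adjusted p = 0.0554) and that of Ssbp1 in 2 (highest 0.104). The other 16 genes of the list were not called, and the list median was −0.17.

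Of 15 regulators of mitochondrial biogenesis, Prkaa2, a catalytic subunit of AMP-activated kinase, fell by 0.61 (adjusted p = 0.0313, kept in 5 of 12 fits leaving out a library). Esrra (−0.63, adjusted p = 0.0921) and Ppargc1b (−1.39, adjusted p = 0.138), a nuclear receptor and its coactivator, were not called. Of 32 genes of mitochondrial RNA processing and stability none was called. Grsf1, which binds RNA in mitochondrial granules, came nearest at −0.48 (adjusted p = 0.0504). The 19 aminoacyl-tRNA synthetases of mitochondria, 32 proteins of mitochondria outside the respiratory chain and 17 genes of mitophagy had no call in this comparison, with medians of 0.05, −0.00 and −0.03.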

How the data were processed

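The submitters' processing notes name HTSeq 0.11.2, HISAT2 2.0.4 and GRCm38; no source used here gives the strand setting, the library kit, the normalization tool or the treatment of reads with several matches. The authors deposited a normalized signal, in which reads per gene are divided by 1 factor per library: whole reads were recovered for 100% of the values (departure at most 0.000371 reads). In WT GFP and WT MET/CAT replicates 1 the factor is so near to 1 that this shows little. The members and lists were chosen with earlier results of these data known.

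Groups were compared with limma 3.58.1 (R 4.3.3, mean-variance trend) on log2(value + 1), which understates changes of low genes. Genes needed at least 10 in at least 3 libraries (13871 genes), and 1 model with 4 group means was fitted over 12 libraries with 7 contrasts. Alternatives were pseudocounts of 0.5 and 10, no filter or a filter of 50, quantile normalization, equal totals, library quality weights, edgeR 4.0.16 and DESeq2 1.42.0 on recovered reads, and fits with a replicate block, on the compared groups alone or lacking 1 library. Adding copies to their sources and removing each library's loess trend with exon length were chosen after seeing the data. No 2 replicates were alike enough to be 1 library. The fit was run on simulated data with known changes in KO MET/CAT alone. These had the same spread setting for every gene, no length trend and no outlying library. They do not show how the fit performs on the present libraries.

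Copies were found with BLAST 2.17.0 of GENCODE M21 transcripts against each other (90% identity over 100 bases), not against a genome, which was not used here; 1 of the 17 is not reported. Of 12 pathway and 9 marker lists, written from general knowledge, counts and medians are given. Every protein and rRNA gene is named. Values in every library are given for called members, rRNA genes, mt-Nd6, mt-Tp and mt-Co1, and for lists the called genes and the smallest p.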

Additional observations from a re-analysis of the deposited data

How the results depend on the processing

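Counts of members called are descriptions wherever MET/CAT libraries are compared. They moved most with library quality weights, which for MET/CAT against GFP gave 14 in WT livers (18.9% of all genes called), 1 in KO livers (11.8%) and 11 averaged over genotypes (17.1%), and 8 for the interaction (9.91%). For KO against WT the weights gave 2 in GFP livers (33% of all genes), 1 in MET/CAT livers (0.0144%) and 3 averaged over plasmids (1.15%). DESeq2 gave 7 in WT livers (4.09%, here and below of the genes it gave an adjusted p) and edgeR 2 (0.526%), and DESeq2 gave 4 for KO against WT in MET/CAT livers (0.272%), 1 averaged over plasmids (0.293%) and 1 for the interaction (1.27%). Leaving out 1 library gave 0 to 3 in WT livers (3 without KO GFP replicate 3, 0 without WT GFP replicate 1 or 2 or WT MET/CAT replicate 2 or 3), 1 to 2 averaged over genotypes and 0 to 1 for KO against WT in MET/CAT livers. With copies added the count was 0 in WT livers and 1 averaged, and with the length trend removed 2 in WT livers and 1 averaged. No filter, quantile normalization, equal library totals, equal totals of other genes and the replicate block each gave 1 averaged. Deviations of same-numbered libraries from their group means had correlations from −0.195 to 0.28 between groups. With 3 libraries a group these cannot show whether the numbers mark a pairing, which the labels do not state. The block changed no other count of members.

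Directions turned for mt-Atp8 in WT livers, from −0.34 to 0.54 with library quality weights and to 0.19 without WT GFP replicate 3 (leaving out 1 library gave −0.83 to 0.19), and for mt-Co3 with copies added, to −0.29 in WT livers and −0.27 averaged over genotypes. With the 10 most abundant other genes left out of the total, the mean share of mitochondrially encoded genes was 3.25% in WT GFP, 3.80% in KO GFP, 5.88% in WT MET/CAT and 3.07% in KO MET/CAT livers. The causes of these moves were not tested.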

Other observations

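Other lists of cell type markers, which no comparison above turned on, are given as values. T, B and NK cell markers had differences below 0 for 8 of 8 genes tested in WT livers for MET/CAT against GFP, none called. Macrophage and Kupffer cell markers had differences above 0 for 13 of 13 genes for MET/CAT against GFP in KO livers, with 2 called higher against 0.858% of all genes tested, and summed to 1899 to 5861 normalized reads in KO GFP and 8260 to 11185 in KO MET/CAT libraries. In KO against WT GFP livers all 13 were below 0, with a median of −1.41, 12 at an unadjusted p under 0.05 and none called, beside a sum of 9435 to 12504 in WT GFP libraries. Cholangiocyte markers summed to 357 to 432 in WT GFP, 186 to 447 in KO GFP, 398 to 640 in WT MET/CAT and 586 to 1248 in KO MET/CAT libraries. Erythroid markers summed to 9742 to 25843, 5526 to 7474, 12697 to 37058 and 8330 to 24246 in the same order. Proliferation markers had differences above 0 for 6 of 6 genes in KO against WT GFP livers, none called. Endothelial markers had a median of 0.40 and stellate and fibroblast markers one of 0.16 for MET/CAT against GFP averaged over genotypes.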
